A study of Mus musculus with 10 samples.

Results

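Amino acid carriers of the heart were compared between mice lacking 3-phosphoinositide-dependent kinase 1 (PDK1, gene Pdpk1) in adipocytes and their controls. The 10 genes were taken by name: the leucine-carrying permeases Slc43a2, Slc43a1, Slc7a5 and Slc7a8, the heavy chain Slc3a2, the neutral carriers Slc38a2, Slc38a1 and Slc1a5, the cationic carrier Slc7a1 and the mitochondrial carrier Slc25a44. Of these 10 genes, 8 had a row among the 11790 genes of the deposited table, and Slc43a1 and Slc38a1 are not analysed here. RNA was sequenced from heart tissue of 5 A-PDK1KO mice and 5 PDK1 flox/flox mice, killed at 10 to 11 weeks of age without a fast. A-PDK1KO is the labels' name for an adipocyte-specific PDK1 knockout. The promoter that drives the deletion and the sex of the mice are not given in the labels. The series' title places the mice as a model of diabetic cardiomyopathy and asks about branched-chain amino acids (BCAA).

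Leucine, isoleucine and valine cross the cell membrane through system L carriers. Slc7a5 (LAT1) and Slc7a8 (LAT2) are exchangers that reach the membrane only when joined to the glycoprotein encoded by Slc3a2 (CD98 or 4F2hc). Slc43a2 (LAT4) and Slc43a1 (LAT3) work without that partner and let these amino acids move down their gradient. Exchangers need a supply of other neutral amino acids inside the cell, which sodium-coupled carriers such as Slc38a2 (SNAT2) and the exchanger Slc1a5 (ASCT2) help to set, and Slc25a44 brings BCAA into the mitochondrion for breakdown.

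The value of 1 read implied libraries of 9249256 to 11384423 counted reads, and the 8 carriers rested on 22 to 1807 reads per heart. Levels are fragments per kilobase of exon, scaled to library size (FPKM), read from the deposited table. In scale 2 libraries stood apart: the median-of-ratios factor was 1.143 in A-PDK1KO replicate 2 and 1.09 in control replicate 4, against 0.9343 to 1.034 in the other 8. Atrial tissue differed between hearts, with the atrial myosin light chain gene Myl7 at 34.98 to 85.92 FPKM in 4 hearts. These were replicates 2 and 5 of the controls and 3 and 5 of the A-PDK1KO mice, and the other 6 hearts were under 1 FPKM. Of 9 adipocyte marker genes, Cfd alone had a row in the table, at no more than 1.36 FPKM in any heart. The labels number the hearts and say no more of their independence, so p-values measure the spread between these samples. In tissue RNA, fewer cells of a type and less RNA per cell cannot be told apart.

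Of the 7 carriers with a mean of at least 1 FPKM, Slc43a2 rose in A-PDK1KO hearts and the other 6 did not pass the test. Its level was 2.03 times as high, 3.02 ± 0.476 FPKM in controls against 6.11 ± 0.988 with the knockout (means ± SD over 5 hearts each). Slc1a5 and Slc7a5 had means 1.45-fold and 1.34-fold those of controls without passing, Slc38a2 and Slc7a1 had lower means without passing, and those of Slc3a2 and Slc25a44 were 0.982 and 1.03 times the control means. Genes were tested with limma on log2(FPKM + 1), A-PDK1KO minus control, and called at a Benjamini-Hochberg adjusted p under 0.05 over 9987 genes. Over all of those genes 2.08% were called, 1.21% as higher and 0.871% as lower. Before adjustment, 5 of the 7 carriers had a p under 0.05 (3 with higher and 2 with lower means), against 15.6% of all genes. The carriers were chosen with earlier results of these data known, so this share describes them and does not test them as a set. The median log2 fold change of the 7 was 0.03, against 0.02 over all genes, and 4 of them lay above 0, against 54.6% of all genes.

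**Figure D1:**
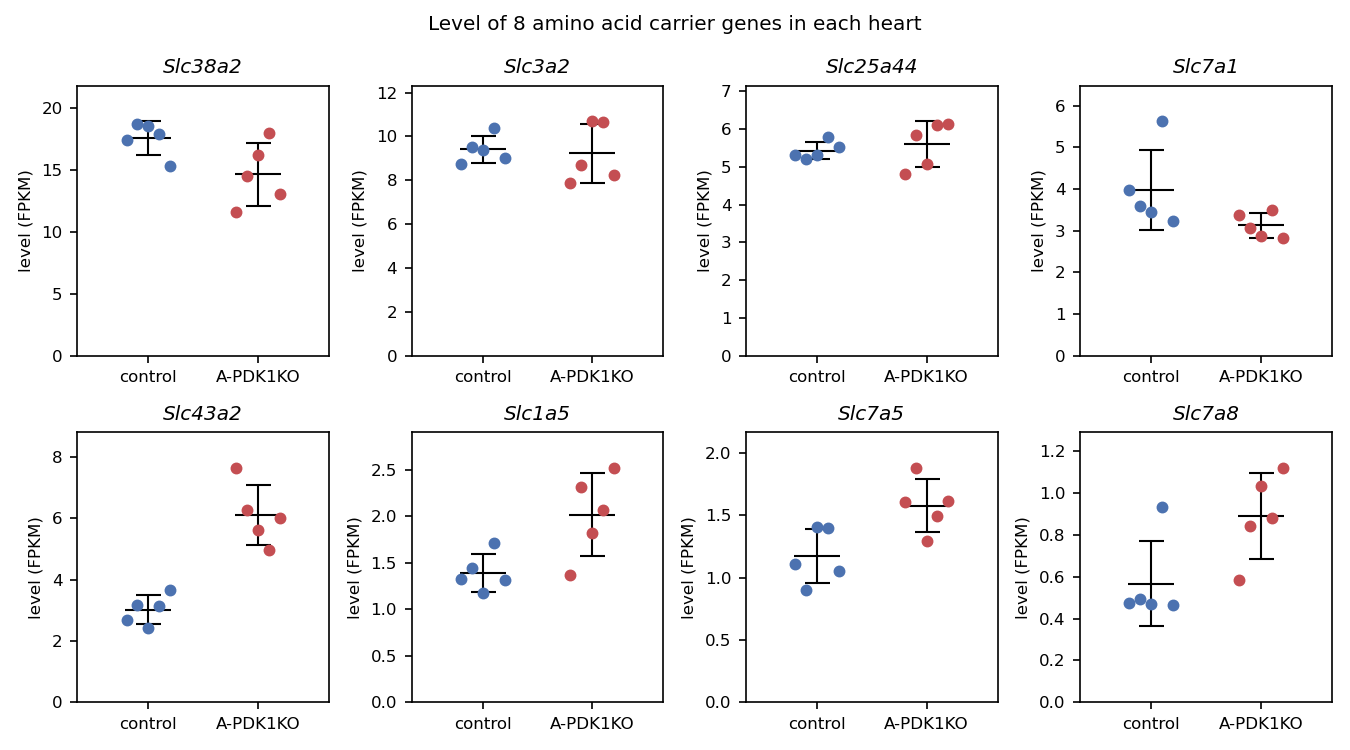
Level of each carrier gene in FPKM (vertical axis, from 0) in 5 control and 5 A-PDK1KO hearts; points are single hearts, long bars the mean and whiskers 1 SD. Slc43a2 is the 1 gene whose groups do not overlap (2.42 to 3.66 against 4.99 to 7.65 FPKM).

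Slc43a2 lies on mm10 chromosome 11, 75531694 to 75577575, on the plus strand, and its exons cover 10042 bases in all. The stretch of 250 bases before its first start is shown because this is the carrier that changed, beside the same stretch of Slc38a2, the most abundant carrier and one that was not called. The sequences are RefSeq's on build GRCm38.p6, 5′ to 3′ along each gene's own strand (chr11:75531444-75531693, plus, and chr15:96699729-96699978, minus), and capitals mark matches to CCAAT on either strand.
Slc43a2: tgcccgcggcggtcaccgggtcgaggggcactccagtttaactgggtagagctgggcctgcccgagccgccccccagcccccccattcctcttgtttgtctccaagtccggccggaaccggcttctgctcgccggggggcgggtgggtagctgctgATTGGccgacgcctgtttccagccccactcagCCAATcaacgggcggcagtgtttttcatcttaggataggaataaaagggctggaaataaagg
Slc38a2: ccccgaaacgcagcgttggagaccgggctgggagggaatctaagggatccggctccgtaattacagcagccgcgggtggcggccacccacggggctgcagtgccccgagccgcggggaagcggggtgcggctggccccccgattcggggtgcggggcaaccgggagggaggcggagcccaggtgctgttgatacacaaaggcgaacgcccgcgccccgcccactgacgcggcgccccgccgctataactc
The Slc43a2 stretch held CCAAT 2 times, starting 62 bases before the start on the gene's strand and, on the opposite strand as ATTGG, 94 bases before it. A further 2 matches lay before the second RefSeq start of the gene at position 75532112. At least 1 match was present in 33.8% of the 32851 RefSeq stretches of this length, so it is a common feature. The other motifs searched on both strands were TGATGNAA (the ATF4 composite site), GTAAACA (FoxO) and CACGTG (E-box), present in 3.45%, 3.17% and 6.02% of stretches. None of them was found in the stretches of Slc43a2, Slc38a2, Slc3a2, Slc7a1 or Slc7a8, and that of Slc43a1 held CACGTG 1 time. Sequence after the starts or further before them was not searched, so a gene may hold these motifs elsewhere. The Slc3a2 stretch (chr19:8713898-8714147, minus) lies within the annotated gene (8706882 to 8723369). Of the 10 genes 6 had a stretch in the table used, and Slc7a5, Slc38a1, Slc1a5 and Slc25a44 did not.

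Slc43a2 stood at 2.70, 3.17, 2.42, 3.13 and 3.66 FPKM in control replicates 1 to 5. The A-PDK1KO replicates, in the same order, gave 7.65, 6.26, 5.63, 4.99 and 6.03 FPKM. All 5 A-PDK1KO hearts lay above all 5 controls, as the groups of 4.96% of all tested genes did in one direction or the other. The log2 fold change was 0.82 ± 0.11 SE (95% interval 0.58 to 1.06, limma adjusted p = 0.00956), which gave the gene rank 5 of 9987 by p and rank 29 by size of increase. It rested on 229 to 737 reads per heart. Counting alone would give a coefficient of variation of 5.77% in controls, where 15.8% was observed, so most of the spread lay between hearts.

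The call held in all 10 fits that left out 1 heart, with a log2 fold change from 0.75 to 0.88 and an adjusted p from 0.00554 to 0.0324. With limma voom on the recovered reads it was 1.01 ± 0.13 SE (adjusted p = 0.00103). Among the 4 hearts that held atrial tissue the gene was at 3.17 and 3.66 FPKM (controls) and at 5.63 and 6.03 FPKM (A-PDK1KO). In the 6 hearts with Myl7 under 10 FPKM it was at 2.42 to 3.13 and 4.99 to 7.65 FPKM. The groups did not overlap in either set, and with only the 6 hearts (3 per group) the log2 fold change was 0.95 and limma no longer called it (adjusted p = 0.114).

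The CD98 complex is described next. Its heavy chain Slc3a2 (chromosome 19, 8706882 to 8723369) was at 8.76, 9.50, 9.40, 10.4 and 9.02 FPKM in the controls, here and below in the order of replicates 1 to 5. With the knockout it was at 7.86, 8.72, 10.7, 10.7 and 8.26 FPKM. The A-PDK1KO hearts spread to both sides of the controls, 2 above all of them and 3 below all of them. Its log2 fold change was -0.03 ± 0.09 SE, with a 95% interval from -0.23 to 0.17 (limma adjusted p = 0.917), and its sign turned when control replicate 4 was left out (0.00055), and likewise replicates 1 (0.018) and 5 (0.0017) of the knockout. The SD was 0.616 FPKM among controls, against 1.35 FPKM among knockout hearts.

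The light chain Slc7a5 (chromosome 8, 121881150 to 121907694) was at 1.11, 0.904, 1.40, 1.39 and 1.06 FPKM in the controls. In the A-PDK1KO hearts it was at 1.60, 1.88, 1.29, 1.49 and 1.61 FPKM. A total of 4 A-PDK1KO hearts lay above every control, and replicate 3 lay within their range. The log2 fold change was 0.25 ± 0.10 SE (95% interval 0.04 to 0.46), with a limma p of 0.0232 before and 0.230 after adjustment. Only 34 to 68 reads per heart support these values, and counting alone would give a coefficient of variation of 15.3% in controls, where 18.7% was observed.

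Slc7a8, the other light chain among the carriers described here (chromosome 14, 54722209 to 54781946), averaged under 1 FPKM over the 10 hearts and was not tested. It was at 0.475, 0.493, 0.467, 0.930 and 0.466 FPKM in the controls. The A-PDK1KO hearts gave 0.583, 0.841, 1.03, 0.878 and 1.12 FPKM, and all 10 values rest on 22 to 58 reads per heart. Control replicate 4 stood at about the level of the A-PDK1KO hearts, while the other 4 controls lay below all of these. In a fit with no filter the log2 fold change was 0.27 ± 0.12 SE (limma adjusted p = 0.338).

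The heavy chain transcript was in excess over each light chain in every heart. Slc3a2 stood at 8.22 ± 1.45 times the level of Slc7a5 in controls and 6.01 ± 1.60 times in A-PDK1KO hearts (mean ± SD of the ratio of FPKM, n = 5 per group), and at 17.7 ± 3.69 and 10.8 ± 2.29 times the level of Slc7a8. Both ratios overlapped between the groups.

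**Figure D2:**
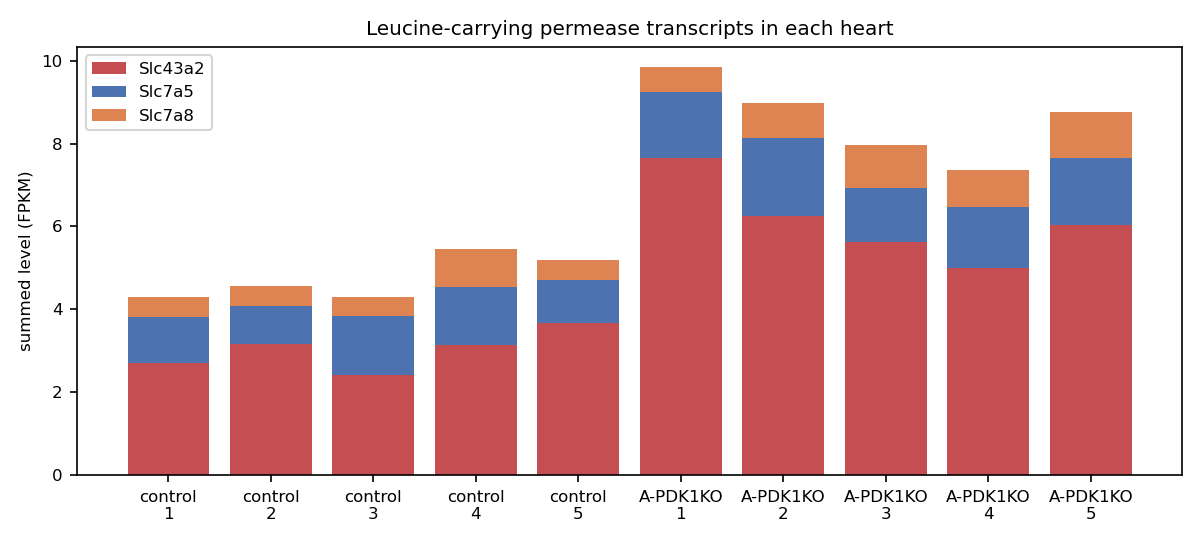
Summed FPKM (vertical axis) of Slc43a2, Slc7a5 and Slc7a8 in each heart (horizontal axis), stacked by gene. The sum lies between 4.29 and 5.46 FPKM in the controls and between 7.36 and 9.84 FPKM in the A-PDK1KO hearts, and Slc43a2 is the largest part in all 10.

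Among the leucine-carrying permeases Slc43a2, Slc7a5 and Slc7a8, Slc43a2 made up most of the summed level. Its share of the summed FPKM of Slc43a2, Slc7a5 and Slc7a8 was 63.4 ± 6.58% in controls and 71.0 ± 3.96% in A-PDK1KO hearts (mean ± SD, n = 5 per group), from 56.4% to 70.6% and from 67.8% to 77.8%, so the shares overlapped. The sum itself was 4.76 ± 0.535 and 8.58 ± 0.958 FPKM. Slc7a5 took 24.9 ± 5.21% of it in controls and 18.4 ± 2.18% in A-PDK1KO hearts, and Slc7a8 took 11.8 ± 3.07% and 10.6 ± 2.97%. These shares describe transcripts per length of gene and leave out Slc43a1.

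The sodium-coupled carrier Slc38a2, which concentrates alanine, serine and glutamine in the cell (chromosome 15, 96687392 to 96699730), was the most abundant of the 8. It was at 17.4, 18.7, 18.5, 17.9 and 15.3 FPKM in the controls, and the A-PDK1KO hearts gave 11.6, 14.5, 16.2, 18.0 and 13.0 FPKM. A total of 3 A-PDK1KO hearts lay below every control, and replicates 3 and 4 lay among the controls. This was a log2 fold change of -0.26 ± 0.11 SE (95% interval -0.49 to -0.03), with a limma p of 0.0308 before and 0.264 after adjustment. With 982 to 1807 reads per heart, counting would give a coefficient of variation of 2.71% in A-PDK1KO hearts, against 17.2% observed.

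Slc1a5, an exchanger of glutamine and other small neutral amino acids (chromosome 7, 16781340 to 16798274), was at 1.32, 1.44, 1.17, 1.71 and 1.32 FPKM in the controls. The A-PDK1KO hearts had 1.37, 2.31, 1.82, 2.06 and 2.52 FPKM. All A-PDK1KO hearts but replicate 1 lay above every control. Its log2 fold change was 0.33 ± 0.11 SE (95% interval 0.08 to 0.57), with a limma p of 0.0126 before and 0.177 after adjustment, on 46 to 109 reads per heart. It was not called in any fit that left out 1 heart (adjusted p from 0.0745 to 0.345).

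Slc7a1 (CAT1), which carries arginine and lysine (chromosome 5, 148327410 to 148399904), had values of 3.99, 3.59, 3.46, 5.63 and 3.22 FPKM in the controls. In the A-PDK1KO hearts they were 3.38, 3.07, 2.87, 3.49 and 2.83 FPKM. Control replicate 4 was the highest of the 10 hearts, and 3 A-PDK1KO hearts lay below all controls. The log2 fold change was -0.25 ± 0.12 SE, with a limma p of 0.0496 before and 0.321 after adjustment. Without control replicate 4 it was -0.15. The SD of the controls was 0.963 FPKM, against 0.298 FPKM for the knockout.

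Slc25a44, the mitochondrial BCAA carrier (chromosome 3, 88410498 to 88425139), was at 5.32, 5.21, 5.32, 5.78 and 5.53 FPKM in the controls. The A-PDK1KO values were 4.81, 5.85, 5.08, 6.11 and 6.13 FPKM. The A-PDK1KO hearts enclosed the controls, with 3 above all of them and 2 below all of them. Its log2 fold change was 0.03 ± 0.08 SE, with a 95% interval from -0.14 to 0.20 (limma adjusted p = 0.901). The controls varied by 4.20%, less than the 7.23% that counting alone would give. On the log2(FPKM + 1) scale its interval was the narrowest of the 7 carriers tested. With limma voom on the recovered reads its SE (0.101) was close to those of Slc3a2 and Slc38a2 (0.104 each).

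The levels ran over a 31.0-fold range in controls, from Slc38a2 at 17.5 ± 1.37 FPKM through Slc3a2 (9.41), Slc25a44 (5.43), Slc7a1 (3.98), Slc43a2 (3.02), Slc1a5 (1.39) and Slc7a5 (1.17) to Slc7a8 at 0.566 ± 0.204 FPKM (n = 5). The control ranges of Slc25a44 and Slc7a1, Slc7a1 and Slc43a2, Slc1a5 and Slc7a5, and Slc7a5 and Slc7a8 overlapped. Slc7a1 exceeded Slc43a2 in 4 of 5 control hearts and in 0 of 5 A-PDK1KO hearts. In the order of group means Slc43a2 had rank 5 in controls and rank 3 in A-PDK1KO hearts, while Slc38a2 and Slc3a2 kept the first places in all 10 hearts. FPKM divide by the exons of all isoforms together, 3529 bases for Slc3a2 and 11530 for Slc7a1, so levels between genes depend on that length.

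Whether the increase of Slc43a2 differed from the change of each other carrier was tested on the difference of their log2(FPKM + 1) in each heart. An exact two-sided permutation test over the 252 ways to divide the hearts into 5 and 5 was used, and p-values were adjusted over the 7 carriers compared. Slc43a2 is the only carrier whose groups did not overlap, and its values enter all 7 comparisons. The p-values are therefore no independent support of its increase. The difference was 1.08 for Slc38a2, 1.07 for Slc7a1, 0.85 for Slc3a2 and 0.79 for Slc25a44, each with an exact adjusted p of 0.00926 (p = 0.00794 before adjustment, the smallest this design can give). It was 0.57 for Slc7a5 and 0.55 for Slc7a8 at the same adjusted p, and 0.50 for Slc1a5 (exact adjusted p = 0.0238). A pseudocount of 1 shrinks the changes of these last 3, the least abundant carriers, and also that of Slc43a2. At a pseudocount of 0.1 the differences for Slc7a5, Slc7a8 and Slc1a5 were 0.59, 0.41 and 0.51, so only that for Slc7a8 became smaller. None of these 3 passed (exact adjusted p = 0.0556, 0.222 and 0.0556), while Slc38a2, Slc7a1, Slc3a2 and Slc25a44 still did.

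**Figure D3:**
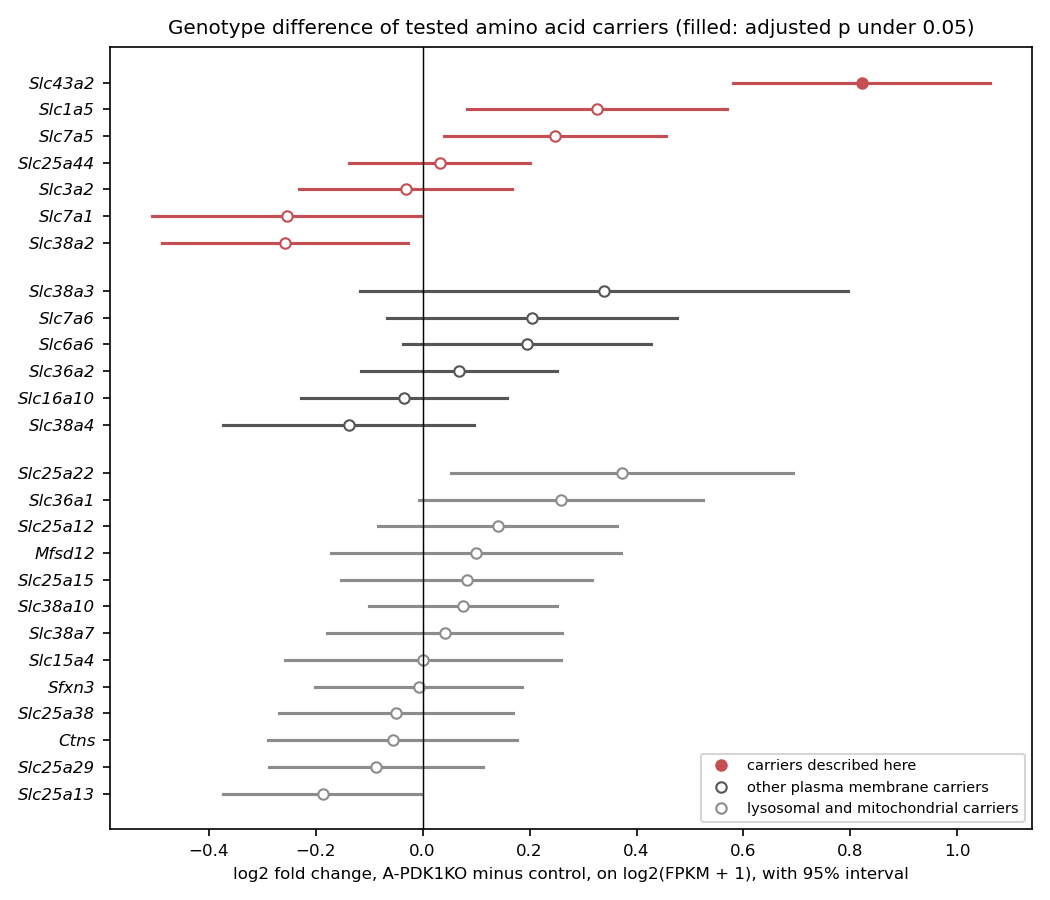
Log2 fold change, A-PDK1KO minus control, of each tested carrier gene (horizontal axis, log2(FPKM + 1) scale) with its 95% interval; filled points passed the test. Slc43a2 at 0.82 is the 1 filled point, and Slc38a2 at -0.26 is the lowest of the carriers described here.

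Other amino acid carriers did not pass the test. Over all tested genes 2.08% were called, 15.6% had an unadjusted p under 0.05 and 54.6% lay above 0. Of 6 other plasma membrane carriers tested 0 were called, also 0 before adjustment, with 4 above 0 and a median log2 fold change of 0.13. Slc6a6, the taurine carrier, was at 10.5 ± 1.32 FPKM (control) and 12.2 ± 1.89 FPKM (A-PDK1KO), and Slc7a6, a CD98 light chain for cationic and neutral amino acids, at 0.974 ± 0.281 and 1.27 ± 0.297 FPKM (limma adjusted p = 0.416 and 0.476). Of 13 lysosomal and mitochondrial carriers 0 were called, with 1 higher and 1 lower at an unadjusted p under 0.05 and a median of 0.04. These were Slc25a22, a mitochondrial glutamate carrier, at 2.92 ± 0.754 and 4.08 ± 1.01 FPKM, and Slc25a13, an aspartate-glutamate carrier, at 34.9 ± 4.05 and 30.5 ± 2.35 FPKM (limma adjusted p = 0.244 and 0.319).

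Genes of amino acid sensing by the growth kinase mTORC1 were not called either. The list also holds genes of mTORC1 itself (Mtor, Rptor and Mlst8) and Rheb. Of 30 tested 0 passed, and the median log2 fold change was 0.03. Before adjustment 3 were higher and 0 lower, 10% of the list against 15.6% of all genes. Mios, a subunit of the GATOR2 complex, was at 2.90 ± 0.267 and 3.68 ± 0.395 FPKM, and Castor2, a relative of the arginine sensor Castor1, at 3.03 ± 0.593 and 4.01 ± 0.467 FPKM (limma adjusted p = 0.146 and 0.177). Sesn2, which encodes a leucine sensor, stayed under the filter and was singled out after its values were seen. It ranged from 0.430 to 0.655 FPKM over the controls and from 0.657 to 1.06 FPKM over the knockout hearts. Groups did not overlap in 4.96% of all tested genes, and the difference of Sesn2 was not tested. Rragb, also of this list and under the filter, had a lower mean in A-PDK1KO hearts (0.754 against 0.957 FPKM).

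In the response to amino acid shortage through the kinase GCN2 and the transcription factor ATF4, 1 of 11 tested genes rose and 0 fell, with a median log2 fold change of -0.08. Over all genes 2.08% were called. Of the 11, 1 was higher and 2 were lower before adjustment (27.3%, against 15.6% of all genes). The list named 25 genes, of which 17 had a row, so it was covered in part. Those with a row that averaged under 1 FPKM were not tested, among them Sesn2, which is also on this list. The called gene was Gpt2, the mitochondrial alanine transaminase, which makes alanine and the BCAA acceptor 2-oxoglutarate from pyruvate and glutamate. It was at 3.43, 3.36, 3.84, 4.27 and 3.74 FPKM in the controls. The A-PDK1KO hearts had 5.49, 6.60, 5.20, 4.28 and 6.09 FPKM. The groups came as close as 4.27 and 4.28 FPKM without overlapping, and the log2 fold change was 0.46 ± 0.10 SE (limma adjusted p = 0.0391). With 1 heart left out at a time the call was lost in 8 of 10 fits and held in those without replicate 4 of either group. The adjusted p was at most 0.108, when A-PDK1KO replicate 5 was left out. It was also lost with atrial tissue as a covariate (adjusted p = 0.0518) and on the TPM scale (0.0873).

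**Figure D4:**
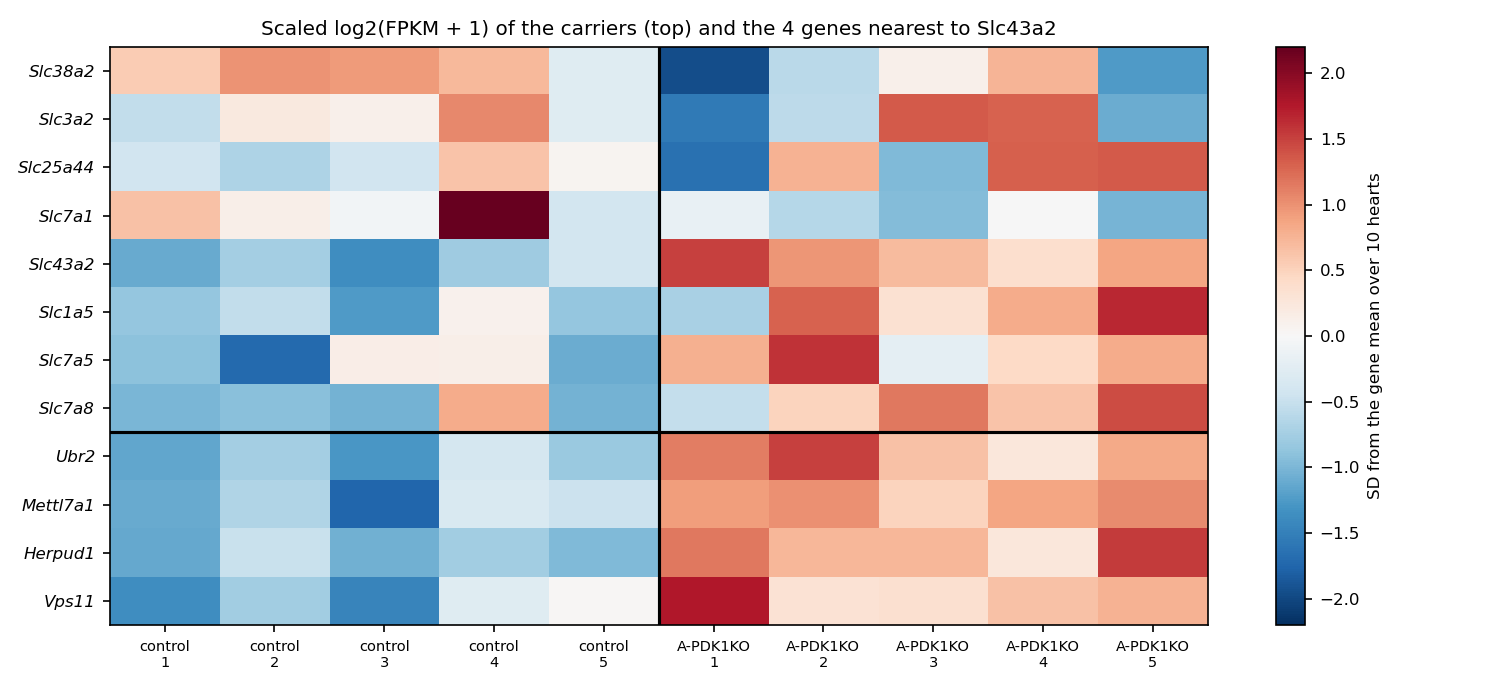
Log2(FPKM + 1) of the 8 carriers (top rows, by control level) and of the 4 genes nearest to Slc43a2 (bottom rows) in each heart, scaled to mean 0 and SD 1 over the 10 hearts; red is high and blue low. A-PDK1KO replicate 1 is the highest heart for Slc43a2 and the lowest for Slc38a2, Slc3a2 and Slc25a44.

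The order of the hearts differed between carriers. A-PDK1KO replicate 1 had the highest Slc43a2 of all 10 hearts and the lowest Slc38a2, Slc3a2 and Slc25a44. A-PDK1KO replicate 5 had the highest Slc1a5, Slc7a8 and Slc25a44 and the lowest Slc7a1. Over the 10 hearts, levels scaled to mean 0 and SD 1 were compared with that of Slc43a2 by root mean square distance, whose median over tested genes was 1.33. The nearest genes, predicted genes left out, were Ubr2 (0.279), Mettl7a1 (0.320), Herpud1 (0.333) and Vps11 (0.347). A distance over 10 hearts mostly reflects the shared difference between genotypes.

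Of these 4 genes Ubr2, Mettl7a1 and Herpud1 rose and Vps11 was not called. Over all genes 2.08% were called. These 4 were picked for a pattern like that of Slc43a2, so a genotype difference in them is no separate result. Ubr2, a ubiquitin ligase of the N-degron pathway, rose from a mean of 9.91 ± 0.575 FPKM to one of 13.2 ± 1.01 FPKM, by 0.38 ± 0.07 SE on the log2 scale (limma adjusted p = 0.0220). Mettl7a1, a methyltransferase-like protein, went from 16.8 ± 1.28 to 21.2 ± 0.633 FPKM (limma adjusted p = 0.0294). Herpud1, a protein of the endoplasmic reticulum that takes part in degrading misfolded proteins, was at 76.3 ± 7.85 and 153 ± 29.1 FPKM (limma adjusted p = 0.00497). Vps11, a subunit of the tethering complexes of late endosomes and lysosomes, was at 3.03 ± 0.373 and 4.00 ± 0.429 FPKM (limma adjusted p = 0.103). With 1 heart left out at a time, Ubr2 kept its call in 7 of 10 fits and Mettl7a1 in 4, and the highest adjusted p were 0.0623 (control replicate 3 left out) and 0.0813 (A-PDK1KO replicate 5 left out). On the TPM scale neither was called (adjusted p = 0.0753 and 0.0969).

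**Figure D5:**
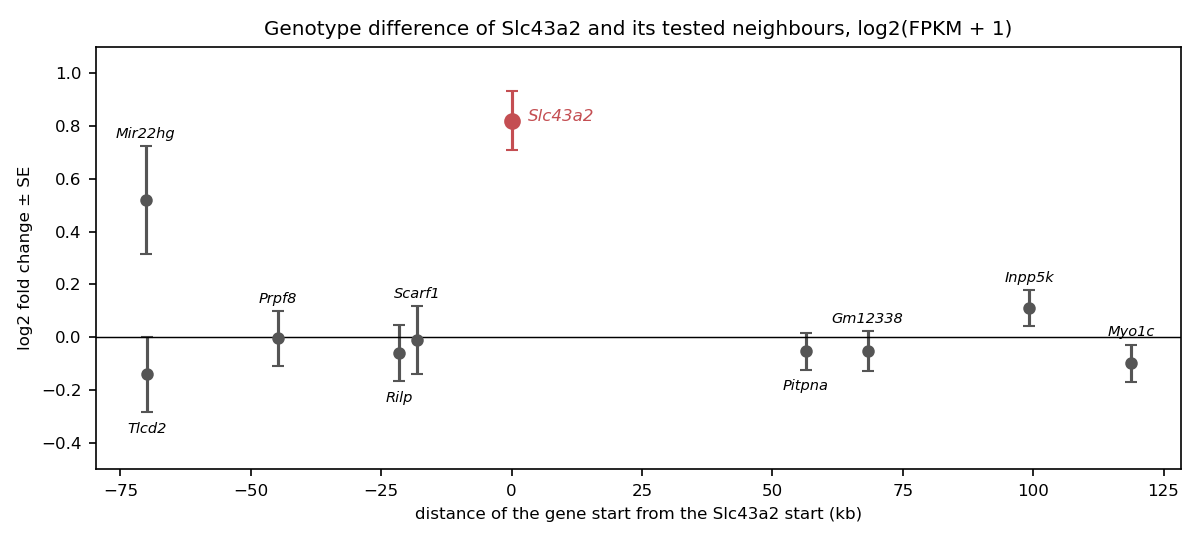
Log2 fold change ± SE (vertical axis, log2(FPKM + 1) scale) of Slc43a2 and of each tested neighbour, by the distance of the gene's start from the start of Slc43a2 in kb (horizontal axis). Slc43a2 stands at 0.82, Mir22hg at 0.52 ± 0.20, and the other 8 neighbours lie between -0.14 and 0.11.

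Genes around Slc43a2 were then examined. Of 9 tested genes that start within 100 kb of either end of Slc43a2, 0 were called (smallest limma adjusted p = 0.241). Before adjustment 1 had a p under 0.05, against 15.6% of all genes. That gene was Mir22hg, the host transcript of a microRNA, at 0.726 ± 0.286 FPKM (control) and 1.58 ± 1.04 FPKM (A-PDK1KO). The closest tested genes on each side, the scavenger receptor gene Scarf1 and the phosphatidylinositol transfer protein gene Pitpna, had log2 fold changes of -0.01 ± 0.13 SE and -0.05 ± 0.07 SE. The annotation places a microRNA (Mir3971) and an antisense transcript (Gm45606) within Slc43a2 and a gene on the opposite strand (Gm20388) across Slc7a5. The sources used here do not give the strand setting, so reads of the antisense transcripts cannot be told apart from those of the carriers.

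Cell type markers gave the following summed levels beside the Slc43a2 result. All 5 endothelial markers had rows and summed to 75.8 to 90.9 FPKM (control) and 80.4 to 87.0 FPKM (A-PDK1KO). The 5 macrophage markers summed to 43.7 to 50.9 and 36.8 to 52.7 FPKM, and the 4 fibroblast markers to 95.4 to 115 and 93.9 to 114 FPKM. The 6 cardiomyocyte markers summed to 14293 to 16952 and 13436 to 15312 FPKM, and the 4 atrial markers, Nppa included, to 214 to 579 and 184 to 268 FPKM. Of the cardiomyocyte markers 6 of 6, of the atrial markers 4 of 4 and of the red cell markers 5 of 5 had a log2 fold change below 0, with medians of -0.15, -0.33 and -0.27. Of the fibroblast markers 4 of 4 lay above 0, with a median of 0.12, against 54.6% of all tested genes above 0. An unadjusted p under 0.05 was reached by 3 cardiomyocyte, 1 atrial, 1 fibroblast and 0 red cell markers, against 15.6% of all genes. The 5 red cell markers summed to 27.9 to 1391 FPKM (control) and 68.6 to 228 FPKM (A-PDK1KO). The median of their sum was higher in A-PDK1KO hearts (119 against 88.8 FPKM), although their log2 fold changes lay below 0. Genes of the same list can vary together between hearts, so the counts below or above 0 are no test. Each of these sums overlapped between the groups, none of the listed marker genes was called, and the part of the cell types in the carriers' differences was not tested.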

How the data were processed

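RNA from 10 hearts, 5 per genotype, was grouped by sample title. FastQC 0.11.7 on paired-end reads is stated per the labels' protocols, and Trimmomatic 0.38, HISAT2 2.1.0, featureCounts 1.6.3 and build mm10 per the submitters' processing notes. The sources used here do not give the annotation or the strand setting. The authors deposited FPKM, with 1 column per heart. The highest value of each gene was at least 1.00 FPKM, and a column of cluster numbers was not used.

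Values were taken as log2(FPKM + 1), and limma 3.58.1 (R 4.3.3) was fitted to the 9987 genes that averaged 1 FPKM or more (empirical Bayes with trend, two-sided, no covariate, adjustment over all genes). Exact permutation tests ran in Python 3.11.15. Whole reads, within 0.05 of a read in all hearts, were recovered for 11585 genes with exon lengths of GENCODE mouse release 21. Within groups no pair of hearts matched within sampling noise (chi-square per degree of freedom 5.21 to 23.1). Scripts were tested on data simulated with the same assumed spread for all genes, where 25.3% of 1.5-fold and 93.8% of 2-fold changes were called.

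The text names the 10 carriers, up to 4 called genes per list or else the 2 of smallest p, the 4 genes nearest to Slc43a2 and its neighbours. Members and lists were chosen with earlier results of these data known. Alternatives covered the pseudocount, filter, scaling, covariates, a replicate block, read-based fits and hearts left out.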

Additional observations from a re-analysis of the deposited data

Results flagged for a closer look

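One value of the carriers lay far from the rest of its group. Slc7a8 was at 0.930 FPKM in control replicate 4, against 0.466 to 0.493 FPKM in the other 4 controls, a gap larger than Dixon's 95% limit for 5 samples. Among 16 groups of 5 hearts checked (8 carriers in each genotype) this was the 1 such value, and chance alone gives about 1 in 20. The heart also had the highest Slc7a1 of all 10 hearts, at 5.63 FPKM, and the second largest median-of-ratios factor (1.09). Slc7a8 rested there on 45 reads.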

How the results depend on the processing

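The increase of Slc43a2 was called under 22 of the 23 alternatives run, with log2 fold changes from 0.75 to 1.01. The exception was the fit to the 6 hearts with Myl7 under 10 FPKM, where 0 carriers, 0 genes of the other lists and 4 genes in all were called. No other carrier was called under any alternative run. The count over all genes (208) was 58 on the TPM scale and 315 after scaling without mitochondrially encoded and haemoglobin genes, and 57 to 150 without 1 heart, falling by over 1.5 times without replicate 1, 3 or 5 of either group. The replicate numbers do not pair the hearts (correlations of same-numbered deviations from -0.116 to 0.0851, and 0 of 5 matched best with their own number). A replicate block gave 153 genes, with Slc43a2 still called (adjusted p = 0.0242) and 0 genes of the other lists. Gpt2, the 1 called gene of those lists, left a count of 0 on the TPM scale, with atrial tissue as a covariate and, in an alternative chosen after seeing the data, without A-PDK1KO replicate 2 and control replicate 4 together, and 0 to 1 without 1 heart. Slc43a2 differed from 7 of 7 carriers, from 4 at a pseudocount of 0.1, and from 7 in each test without 1 heart. It differed from 0 in the 6 hearts with Myl7 under 10 FPKM and from 0 with a replicate block, where the smallest possible p is 0.1 and 0.0625. With both of those hearts left out it differed from 6. With a filter at 2 FPKM Slc1a5 and Slc7a5 were not tested, so they have no value there. Quantile normalization covered 6 carriers and all 6 passed. The sign of Slc3a2 turned without those 2 hearts (0.017) and, leaving out 1 heart, its log2 fold change ran from -0.082 to 0.018. The slight difference of Slc25a44 kept its sign throughout. Slc7a8 was too low for the main test. Slc7a5 and Slc1a5 rest on 34 to 109 reads per heart and were not called, and the part of depth in this was not tested.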
